A study of Mus musculus with 4 samples.

Results

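The miR-297, miR-466, miR-467 and miR-669 families were taken as every listed mature miRNA of those 4 numbers, with any letter and either arm. They came to 71 of the 1091 miRNAs listed. Names with identical counts in all 4 libraries were taken as 1 measurement, which left 62 of 934 measurements. Small RNA of CD4+ T cells was sequenced from C57BL/6 mice that were either Cbl-b-/- or wild type (WT). Cbl-b, a ubiquitin ligase, acts as a brake on the T cell receptor. The groups were Cbl-b-/- stimulated, WT stimulated, Cbl-b-/- unstimulated and WT unstimulated cells, stimulation being anti-CD3, an antibody to part of the receptor complex, for 48 h, and unstimulated cells being called naive in the labels. Each group had 1 library, so no value below has a replicate check, and the labels do not say how many mice a library holds. Genotype labels could not be compared with the Cblb transcript, which was not analysed here.

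The 4 families are known as a rodent group of miRNAs that sits as a long tandem repeat inside an intron of Sfmbt2, a Polycomb gene that is imprinted and best studied in the placenta. A miRNA hairpin is cut into a duplex whose strands are named 5p and 3p after the side of the hairpin they come from. One strand is usually loaded into an Argonaute protein and kept, and the other is degraded, so the arms of 1 hairpin can differ widely in level. The bases at positions 2 to 8 of the mature strand, the seed, pair with target messenger RNAs.

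RefSeq (GRCm38.p6) placed 82 hairpins of the 4 numbers on the mouse genome, 72 of them within Sfmbt2 (chromosome 2, 10370440 to 10595253, plus strand). The 72 hairpins spanned 51.617 kb, from 10466663 to 10518279, and 0 of them touched an exon of Sfmbt2 in the GENCODE M21 annotation. The gene held 29 miR-669, 24 miR-466, 14 miR-467 and 5 miR-297 hairpins. Single names had many copies, with 12 hairpins of miR-669a, 10 of miR-467a and 8 of miR-466b. The other 10 hairpins lay on 7 other chromosomes. Reads of miR-466i-5p, miR-466i-3p, miR-466j, miR-466k, miR-467h and miR-669n had an annotated hairpin outside Sfmbt2 alone, and miR-466a had none under that name.

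**Figure D1:**
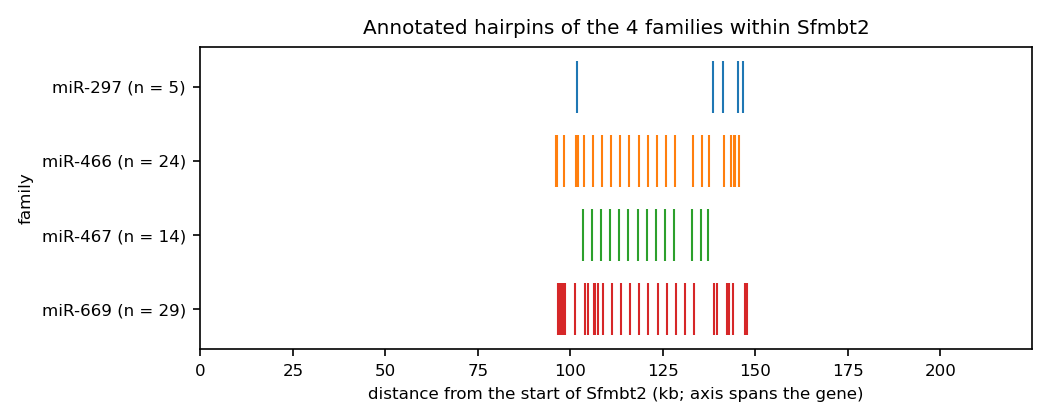
Position of each annotated hairpin of the 4 families within Sfmbt2, as distance in kb from the start of the gene, with 1 vertical line per hairpin, 1 lane per family and the axis covering the whole gene. The 72 hairpins lie in a single block of 51.617 kb, in which miR-466, miR-467 and miR-669 hairpins recur along most of its length.

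Mature sequences from RefSeq (GRCm38.p6) were matched for 5 of the 71 names. They are shown because they are the names with a sequence in that table, with runs of UG in 4 of them and runs of AC in the 3p strand of miR-466i. The base composition of the other names was not analysed here. Seeds are in capitals.
miR-466k: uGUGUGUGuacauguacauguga
miR-466j: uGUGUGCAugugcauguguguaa
miR-669n: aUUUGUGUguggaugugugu
miR-467h: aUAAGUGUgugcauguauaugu
miR-466i-3p: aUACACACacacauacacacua
The mature strands lie at chr3:85467396-85467418 (miR-466k), chr10:60960802-60960824 (miR-466j), chr3:115979905-115979924 (miR-669n), chr9:115381898-115381919 (miR-467h) and chr13:17747552-17747573 (miR-466i-3p), all on the plus strand. UG occurred 7 times in miR-466k, 8 times in miR-466j, 7 times in miR-669n and 5 times in miR-467h, whereas miR-466i-3p had 0 UG and 8 AC. The 5 seeds were all different. All 5 were scarce in these cells, with means over the 4 libraries below 10 CPM (counts per 1000000 counted miRNA reads).

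Depth was 11561693, 13074598, 14017277 and 15436447 counted miRNA reads in the Cbl-b-/- stimulated, WT stimulated, Cbl-b-/- unstimulated and WT unstimulated libraries, and all values given for 4 libraries follow this order. A count of 0 allowed a level of up to 0.194 to 0.259 CPM, taken as 3 counts. At least 1 read was found for 70, 71, 69 and 68 of the 71 names. Each ratio between libraries carries a 95% exact Clopper-Pearson interval; intervals and floors cover counting error only, and PCR copies of 1 molecule are counted as separate reads. The 5 T cell miRNAs of the marker list were all listed and summed to 164990, 183802, 376318 and 392157 CPM, and 8 TCR-induced miRNAs summed to 279233, 247808, 83424 and 68142 CPM. Lists of other cells also moved with stimulation. The 2 myeloid miRNAs summed to 69.4, 83.4, 413 and 484.96 CPM, the 4 stromal ones to 49.9, 45.6, 171 and 166 CPM, and the 2 endothelial ones to 324, 334, 71.6 and 119 CPM. Most of the stromal sum was miR-143-3p, at 44.6, 41.7, 164 and 159 CPM. The 5 erythroid miRNAs summed to 915, 390, 1652 and 1408 CPM. Of the 4 liver and muscle miRNAs 2 were listed, summing to 0.306 to 0.648 CPM. Of the 11 miRNAs of trophoblast and embryonic stem cells 2 were listed, summing to 105, 111, 232 and 277 CPM. Nearly all of that sum was miR-322-5p, while miR-503-5p was at 0.692, 0.918, 0.571 and 0.583 CPM. No listed marker was at 0 in all libraries. The part of these cell types in the results was not tested, and in bulk samples fewer cells of a type and less RNA per cell cannot be told apart.

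Together the families were a small part of the miRNA reads of these T cells and held a lower share after stimulation. The 62 measurements summed to 1777, 2036, 2243 and 2585 CPM, or 0.178%, 0.204%, 0.224% and 0.259% of the counted reads. Both stimulated libraries lay below both unstimulated ones, and each Cbl-b-/- library lay below the WT library of its state. The log2 ratio of the sums for stimulated over unstimulated cells was -0.34 in Cbl-b-/- (-0.36 to -0.31) and -0.34 in WT (-0.37 to -0.32). Under TMM factors these were -0.94 and -0.96, and under DESeq2 size factors -0.87 and -0.99. For Cbl-b-/- over WT it was -0.20 in stimulated and -0.20 in unstimulated cells.

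The strands behaved unequally. The 28 5p measurements summed to 1289, 1484, 1349 and 1495 CPM, a log2 ratio for stimulation of -0.07 in Cbl-b-/- and -0.01 in WT, which became -0.67 and -0.62 under TMM factors. The 27 3p measurements summed to 458, 515, 863 and 1054 CPM, a log2 ratio of -0.92 in Cbl-b-/- (-0.96 to -0.87) and -1.03 in WT (-1.07 to -0.99), which became -1.52 and -1.65 under TMM factors. The 3p strands thus made up 25.8%, 25.3%, 38.5% and 40.8% of the reads of the families.

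The 4 families differed in how their strands stood after stimulation. miR-669, the family with most hairpins in Sfmbt2, had 3p strands at 120, 130, 305 and 422 CPM, lower in both stimulated libraries. Its 5p strands, at 484, 573, 356 and 363 CPM, were higher in both, although the log2 ratio of 0.44 in Cbl-b-/- cells turned to -0.16 under TMM factors and that of 0.66 in WT cells to 0.05. miR-466 had 3p strands at 251, 302, 394 and 455 CPM, lower in both stimulated libraries. Its 5p strands, at 185, 203, 138 and 127.5 CPM, were higher in both, although the log2 ratio of 0.42 in Cbl-b-/- cells turned to -0.18 under TMM factors and that of 0.67 in WT cells to 0.06. miR-467, the most abundant family with 655, 731, 956 and 1109 CPM over its 9 measurements, was lower in stimulated cells on both strands. Its 5p strands summed to 579, 657, 820 and 962 CPM and its 3p strands to 76.2, 73.3, 135.9 and 148 CPM. miR-297, the smallest, summed to 51.6, 61.2, 62.6 and 72.2 CPM.

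Few members carried most of the reads. A mean of at least 100 CPM was reached by 6 measurements, 24 lay from 10 to under 100 CPM, 20 from 1 to under 10 CPM and 12 under 1 CPM. The 5 most abundant held 49.2%, 48.6%, 47.0% and 49.1% of the reads of the families, and the 12 most abundant 73.8%, 72.5%, 77.5% and 79.0%. The level minimum of 10 CPM used below divided miR-466a-5p, with a mean of 11.8 CPM, from miR-466f, with 9.56 CPM.

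**Figure D2:**
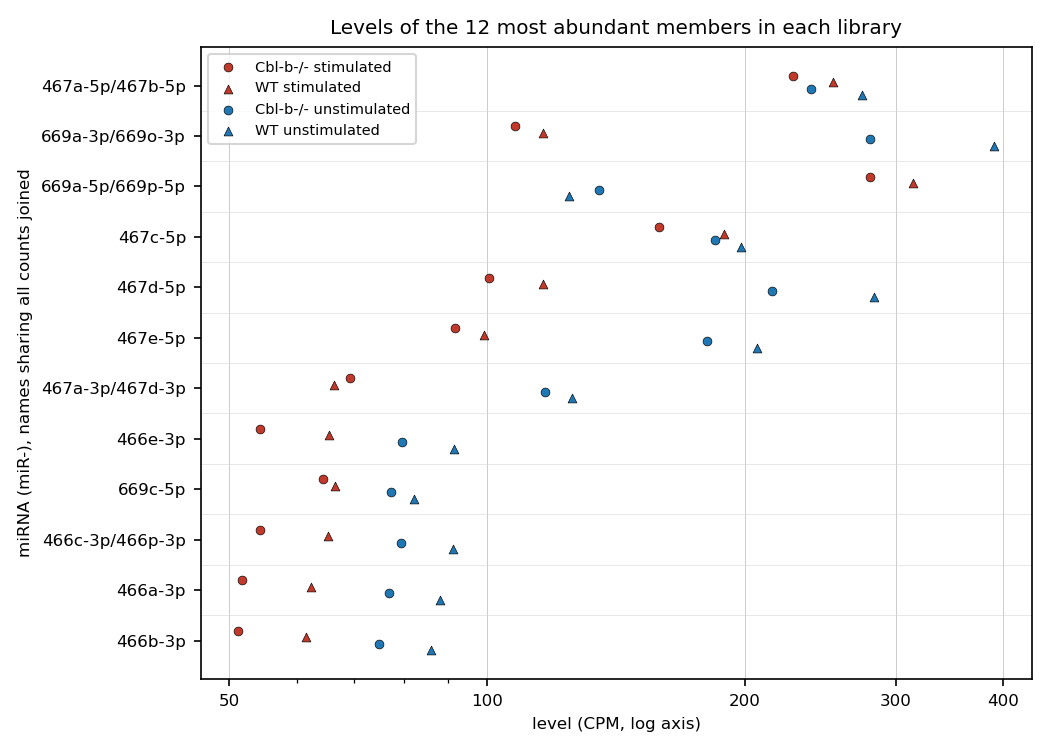
Level in CPM, on a log axis, of the 12 most abundant members in the 4 libraries, with circles for Cbl-b-/-, triangles for WT, red for stimulated and blue for unstimulated cells; names that share all counts are joined by a slash. miR-669a-5p lies to the right in red at 280 and 314 CPM, while miR-669a-3p, miR-467d-5p and miR-467e-5p lie to the right in blue.

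The 5p and 3p measurements that carry the name miR-669a crossed over with stimulation. miR-669a-5p, which had the same counts as miR-669p-5p, was at 280, 314, 135 and 125 CPM. Its partner miR-669a-3p, with the same counts as miR-669o-3p, was at 108, 116, 280 and 391 CPM. The 5p measurement was the more abundant in both stimulated libraries and the 3p measurement in both unstimulated ones. The 5p strand of miR-669o and the 3p strand of miR-669p are not in this comparison. Whether the strands of single hairpins crossed over was not tested.

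Among the other abundant members the miR-467 5p strands, scaled by column sums, fell into pairs. miR-467a-5p, with the counts of miR-467b-5p, was at 227, 253, 239 and 274 CPM, and miR-467c-5p was at 159, 189, 185 and 198 CPM. Scaled by column sums, neither of these differed by more than 1.5-fold between a stimulated library and the unstimulated one of its genotype. Under other scalings both passed 1.5-fold. The lowest log2 ratios for stimulation were then -0.67 in Cbl-b-/- and -0.76 in WT cells for miR-467a-5p. For miR-467c-5p they were -0.82 and -0.72 in the same genotypes. miR-467d-5p was at 101, 116, 215 and 283 CPM, and miR-467e-5p at 91.8, 99.1, 181 and 207 CPM. Both lay lower in the stimulated libraries of both genotypes, with no overlap between states.

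The 3p strands of the miR-466 family formed a near-uniform block. miR-466e-3p was at 54.4, 65.5, 79.5 and 91.4 CPM, miR-466c-3p (with miR-466p-3p) at 54.4, 65.2, 79.4 and 91.3 CPM, miR-466a-3p at 51.7, 62.4, 76.8 and 88.0 CPM, and miR-466b-3p at 51.3, 61.5, 74.8 and 86.0 CPM. These 4 measurements differed from each other by 0.467% to 6.07% at most in a library, and whether they count the same reads was not tested. miR-467a-3p (with miR-467d-3p) was at 69.3, 66.4, 117 and 126 CPM, and miR-669c-5p at 64.4, 66.5, 77.2 and 82.3 CPM. All of these were lower in each stimulated library than in the unstimulated library of its genotype.

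The comparison of stimulated with unstimulated cells asks how the miRNAs differ after 48 h of anti-CD3. The labels of the unstimulated cells name no hours, and the part of time in culture was not tested. The rule applied was one of size, with no p-value, since 1 library stands on each side: a ratio of 2-fold or more, an interval free of 0 and a mean of 10 CPM or more over the pair. In Cbl-b-/- cells 29 of the 62 measurements reached the level minimum; 2 were higher in stimulated cells, where 37.6% of all 330 measurements at that level were, and 6 were lower, where 16.4% were. In WT cells 32 reached it; 4 were higher, against 39.6% of all measurements at that level, and 7 were lower, against 14.2%. Under TMM factors the split was 0 higher and 14 lower in Cbl-b-/- cells, where 25.2% and 29.4% of all measurements were, and 0 higher and 15 lower in WT cells, where 24.9% and 27.4% were. The median log2 ratio of the members was -0.24 in Cbl-b-/- and -0.02 in WT cells, beside 0.47 and 0.56 for all measurements in the same genotypes.

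The higher members were 5p strands throughout. miR-669a-5p had a log2 ratio of 1.05 (0.97 to 1.13) in Cbl-b-/- and 1.34 (1.26 to 1.41) in WT cells. miR-466h-5p, at 34.3, 35.7, 14.7 and 14.1 CPM, had 1.22 (0.97 to 1.47) and 1.35 (1.11 to 1.58) in the same genotypes. Both passed the rule in both genotypes. miR-466o-5p was at 23.0, 26.3, 13.1 and 10.9 CPM and miR-466b-5p at 20.1, 22.7, 11.6 and 9.72 CPM; their log2 ratios of 0.81 and 0.80 in Cbl-b-/- cells did not reach 2-fold, and those of 1.26 and 1.23 in WT cells passed the rule. None of the 4 was past 2-fold when libraries were scaled by TMM factors, which take 0.60 (Cbl-b-/-) and 0.61 (WT) off every log2 ratio for stimulation, but each stayed above 0.

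The lower members over both genotypes were 4 3p strands, 3 5p strands and miR-466g. miR-669a-3p had log2 ratios of -1.37 (-1.47 to -1.28) in Cbl-b-/- and -1.75 (-1.83 to -1.67) in WT cells. The miR-297 3p strand, shared by the names a, b and c, was at 10.4, 10.2, 27.8 and 29.3 CPM, with log2 ratios of -1.42 and -1.52. miR-466d-3p, at 20.1, 20.7, 47.9 and 54.0 CPM, had -1.25 and -1.38. In all 3 the 2 stimulated libraries were close to each other and far below the unstimulated ones.

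miR-466h-3p, at 4.84, 7.65, 14.7 and 20.3 CPM, was under the level minimum in Cbl-b-/- cells and passed the rule in WT cells with -1.41. Of the 5p strands, miR-467d-5p passed in both genotypes with -1.10 in Cbl-b-/- and -1.28 in WT. miR-467e-5p passed in WT alone, with -0.98 in Cbl-b-/- and -1.06 in WT. miR-669d-5p, at 22.3, 28.8, 44.7 and 46.8 CPM, passed in Cbl-b-/- alone, with -1.001 in Cbl-b-/- and -0.70 in WT. miR-466g, a name without an arm, was at 7.44, 11.1, 17.8 and 23.3 CPM and passed in both, with -1.26 and -1.07. No member met the rule for a difference between states that is given below.

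**Figure D3:**
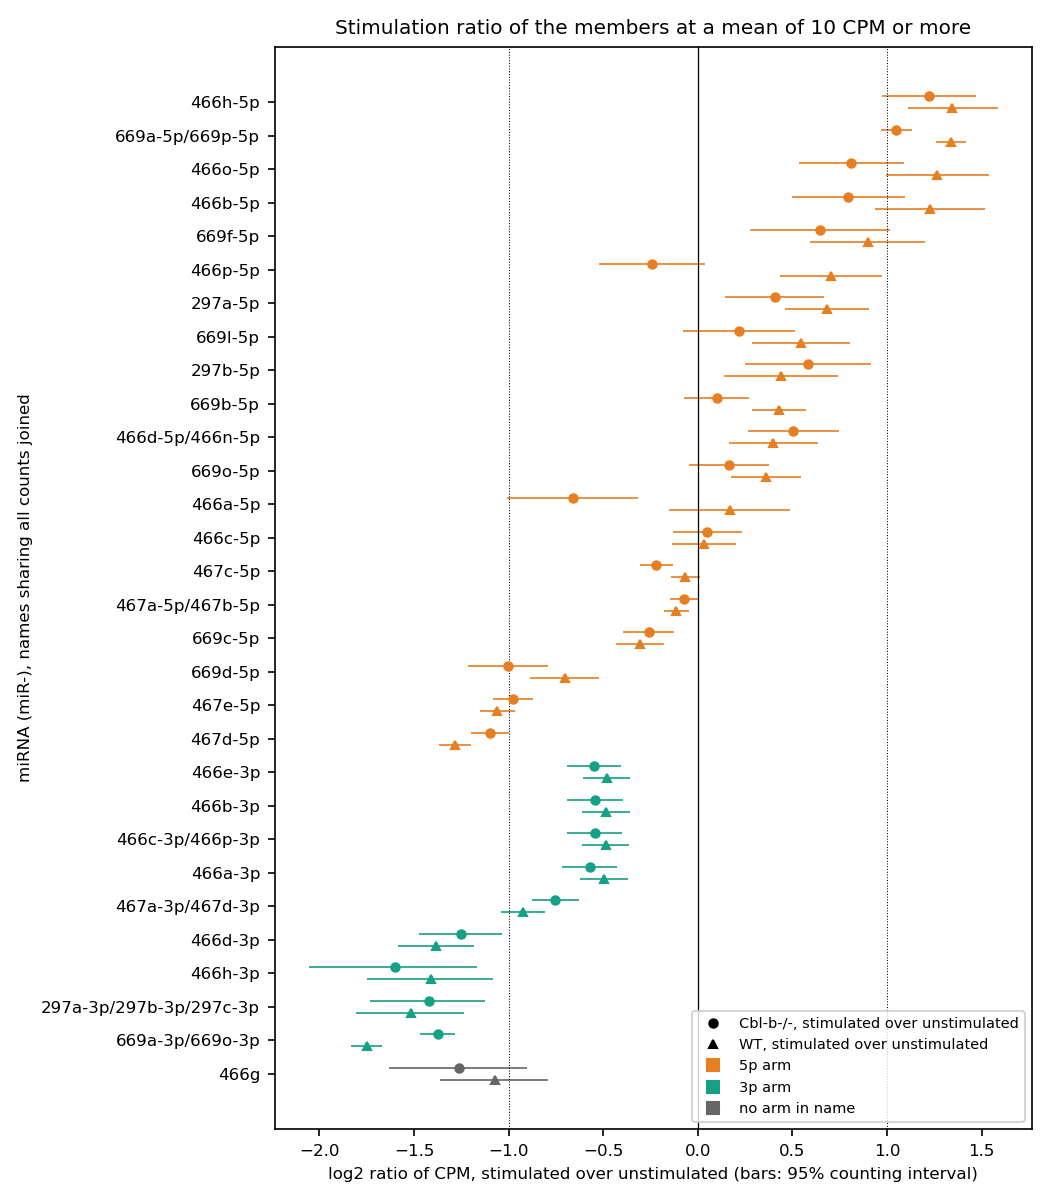
Log2 ratio of CPM, stimulated over unstimulated, for the 30 members that average 10 CPM or more, with circles for Cbl-b-/-, triangles for WT and bars for the 95% counting interval; orange marks 5p, green 3p and grey names without an arm, and dotted lines mark 2-fold. The 3p members lie left of 0 in both genotypes, while the 5p members run from miR-466h-5p, at 1.22 and 1.35, down to miR-467d-5p, at -1.10 and -1.28.

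By strand, 20 5p members were measured in Cbl-b-/- cells with 2 higher, 2 lower and a median log2 ratio of 0.13, and 20 in WT cells with 4 higher, 2 lower and a median of 0.41. The 5p strands of other miRNAs had medians of 0.48 in Cbl-b-/- and 0.52 in WT cells, with 42.6% and 44.6% higher and 17.0% and 15.8% lower in the same genotypes. The 3p members were 8 in Cbl-b-/- cells, with 0 higher, 3 lower and a median of -0.66, and 10 in WT cells, with 0 higher, 4 lower and a median of -0.71. In both genotypes the 3p members include each measurement of the near-uniform miR-466 block. Their medians with that block kept once were not computed. The 3p strands of other miRNAs had medians of 0.59 in Cbl-b-/- and 0.81 in WT cells, with 38.4% and 39.7% higher and 15.2% and 9.92% lower.

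A test of the stimulation term came from edgeR's quasi-likelihood fit of all 4 libraries with additive terms for genotype and state, in which the 2 genotypes stand as the 2 libraries of a state and 1 residual degree of freedom is left. Of the 50 members that averaged 1 CPM or more, 13 rose and 19 fell at an adjusted p under 0.05 (Benjamini-Hochberg over all measurements tested), beside 49.4% and 24.7% of all measurements. Of 27 5p members 11 (40.7%) rose and 4 (14.8%) fell, beside 51.9% and 27.2% of the 5p strands of other miRNAs. Of 19 3p members 0 rose and 14 fell, whereas of 219 3p strands of other miRNAs 113 rose and 49 fell. The 14 include each measurement of the near-uniform miR-466 block. The 14 3p calls, and all 19 lower calls, were kept under TMM scaling, under DESeq2's size factors, with the 10 most abundant miRNAs left out of the totals, and in DESeq2's own test. The split was 4 higher and 24 lower of 50 under TMM factors, beside 33% and 34.3% of all measurements. It was 3 higher and 24 lower of 55 in DESeq2's test, beside 25% and 27.3%. For the 27 5p members the balance turned with the scaling. Under TMM factors 4 rose and 8 fell, the 8 including miR-467a-5p and miR-467c-5p. Under DESeq2 size factors 4 rose and 9 fell, and in DESeq2's test 3 rose and 9 fell. The shares of the 5p strands of other miRNAs in these settings were not computed. The rises were thus fewer: 4 of the 13 were kept under TMM factors and 3 in DESeq2's test, which were miR-466h-5p, miR-669a-5p and miR-669k-5p.

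In the same edgeR fit the largest fall in log2 terms was that of miR-669a-3-3p, by 2.15 (adjusted p = 0.0026), a scarce strand with 2.51, 1.84, 9.13 and 10.0 CPM. The most abundant 3p strand, miR-669a-3p, fell by 1.56 (adjusted p = 0.00077), and miR-466d-3p fell by 1.32 (adjusted p = 0.0013). The near-uniform miR-466 block fell by 0.51 to 0.53 (adjusted p = 0.014 to 0.015). miR-467c-3p, at 2.42, 2.45, 7.28 and 8.68 CPM, fell by 1.71 (adjusted p = 0.0041), and miR-467e-3p, at 4.24, 4.36, 11.4 and 12.9 CPM, fell by 1.497 (adjusted p = 0.0034). For all of these both stimulated libraries lay below both unstimulated ones.

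Among the rises, miR-669a-5p had 1.19 (adjusted p = 0.0013) and miR-466h-5p 1.28 (adjusted p = 0.0018). miR-669k-5p rose by 3.31 (adjusted p = 0.0018) from few reads, with 35 and 88 reads in the Cbl-b-/- and WT stimulated libraries and 6 and 8 in the unstimulated ones. miR-297a-5p, at 22.4, 30.1, 16.9 and 18.8 CPM, rose by 0.55 (adjusted p = 0.033), a value whose sign turns in Cbl-b-/- cells under TMM factors. The 5p strands that fell in this fit, scaled by column sums, were miR-467d-5p, miR-467e-5p, miR-669d-5p and miR-297c-5p. The last was at 4.24, 5.43, 8.06 and 12.8 CPM with a log2 change of -1.09 (adjusted p = 0.011). More 5p strands fell under TMM factors and DESeq2 size factors.

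Of the 5 scarce members with printed sequences, 2 changed in the same fit. The UG-rich miR-466k, at 7.70, 10.6, 3.71 and 2.79 CPM, rose by 1.49 (adjusted p = 0.011), a call that was lost under TMM factors. The AC-rich miR-466i-3p, at 4.67, 4.97, 12.2 and 11.6 CPM, fell by 1.30 (adjusted p = 0.0051). The UG-rich miR-466j, at 1.73, 1.68, 1.78 and 1.62 CPM, had a log2 change of 0.01 (adjusted p = 0.989), and miR-467h and miR-669n were too scarce to be tested.

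The ratio of 5p to 3p reads of a name within a library does not depend on how libraries are scaled, and it was computed after the values of the strands had been seen. Of 31 pairs of arms, 12 had both arms at an average of 10 CPM or more. In Cbl-b-/- cells 7 of the 12 shifted to 5p with stimulation by at least 2-fold, where 21.3% of all 89 pairs of the tables did, and 0 shifted to 3p. In WT cells 8 of the 12 shifted to 5p, where 27% of all pairs did, and 0 shifted to 3p. The median shift in log2 was 1.44 in Cbl-b-/- and 1.74 in WT cells, beside -0.02 and -0.13 over the 77 pairs of other miRNAs, of which 12 and 16 shifted to 5p and 11 and 10 to 3p in the same genotypes.

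miR-669a held 2.59, 2.71, 0.483 and 0.319 5p reads per 3p read, a shift in log2 of 2.42 (2.30 to 2.55) in Cbl-b-/- and 3.09 (2.97 to 3.20) in WT cells. miR-466h held 7.02, 4.65, 1.00 and 0.692, with shifts of 2.81 and 2.75. miR-297a held 2.15, 2.93, 0.608 and 0.641, with shifts of 1.82 and 2.19. In each of these ratios the 5p measurement led after stimulation, and the 3p measurement led or equalled it without. For miR-297a this sets 1 5p strand against a 3p measurement shared by the names a, b and c. All miR-297 5p strands together summed to 34.7 and 42.9 CPM in the Cbl-b-/- and WT unstimulated libraries. The shared 3p measurement was at 27.8 and 29.3 CPM there, so the 5p strands together led without stimulation too.

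miR-466d held 1.36, 1.20, 0.401 and 0.348, and miR-297b 1.41, 1.498, 0.352 and 0.387, so these ratios crossed equal reads too. miR-297b has the same shared 3p measurement as miR-297a. The 5p measurement of miR-466d is shared with miR-466n, whose 3p strand is not in the ratio. Likewise the 5p measurement of miR-669a is shared with miR-669p, and its 3p measurement with miR-669o. Whether the strands of single hairpins crossed over was therefore not tested. miR-466b, at 0.392, 0.370, 0.155 and 0.113, and miR-669o, at 0.285, 0.331, 0.0981 and 0.0767, shifted past 2-fold in both genotypes while the 3p strand remained the more abundant. miR-466p passed in WT alone, with a shift of 0.30 in Cbl-b-/- and 1.19 in WT cells. Below 2-fold in both genotypes were miR-467a with 0.68 in Cbl-b-/- and 0.81 in WT, miR-466c with 0.60 and 0.52, miR-466a with -0.09 and 0.67, and miR-467d with -0.34 and -0.36. miR-467d was the single pair that moved to 3p in both genotypes, and its 3p measurement is the one it shares with miR-467a.

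Several pairs rest on a common 3p measurement, namely miR-297a with miR-297b, miR-466c with miR-466p, miR-467a with miR-467d and miR-669a with miR-669o. With each 3p measurement kept once, 5 of 8 pairs shifted to 5p in each genotype. The 8 still include the near-identical 3p measurements of miR-466a, miR-466b and miR-466c, which differed by at most 2.69% to 5.84% in a library. The share of all pairs of the tables under this setting was not computed. At a minimum of 50 CPM for both arms 3 pairs were left and 1, miR-669a, shifted in each genotype.

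**Figure D4:**
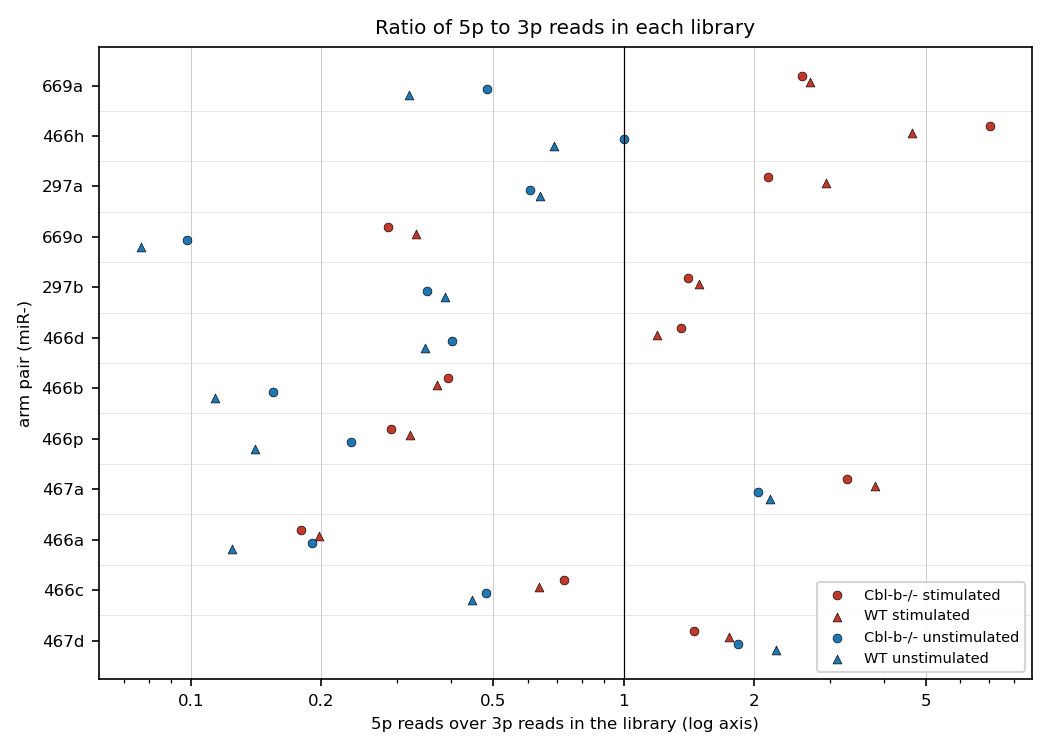
5p reads over 3p reads, on a log axis, of the 12 pairs of arms in the 4 libraries, with circles for Cbl-b-/-, triangles for WT, red for stimulated and blue for unstimulated cells and a line at equal reads; pairs are ordered by the shift in WT cells. Red points lie right of blue points for 10 pairs, with miR-669a at 2.59 and 2.71 against 0.483 and 0.319, and left of them for miR-467d.

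The comparison of Cbl-b-/- with WT cells asks what the loss of Cbl-b changes in each state. In stimulated cells 0 of 29 members passed the rule, where 6.93% of all 332 measurements did, and in unstimulated cells 0 of 33 did, where 3.69% of all 298 did. The median log2 ratio of the members was -0.19 in stimulated cells, with 26 of 29 below 0, and -0.15 in unstimulated cells, with 25 of 33 below 0. Over all measurements the medians were -0.05 and -0.02 in the same states, with 188 of 332 and 156 of 298 below 0. In both states the members include each measurement of the near-uniform block described above. The counts below 0 with that block kept once were not computed. The 2 comparisons use different libraries, but each rests on a single library on either side.

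The members nearest to the 2-fold limit were scarce. In unstimulated cells miR-297c-5p had the lowest ratio among those at the level minimum, at 8.06 CPM in Cbl-b-/- against 12.8 CPM in WT, and miR-466p-5p the highest, at 18.6 CPM against 12.8 CPM. miR-669a-3p was at 280 CPM in Cbl-b-/- against 391 CPM in WT unstimulated cells, a log2 ratio of -0.48, and at 108 against 116 CPM in stimulated cells, a log2 ratio of -0.11. miR-467d-5p had -0.40 in unstimulated and -0.21 in stimulated cells.

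In the additive edgeR fit 0 of 50 members differed between genotypes at an adjusted p under 0.05, where 1.86% of all measurements tested did. The smallest adjusted p of a member was 0.355, 3 members had an unadjusted p under 0.05, and DESeq2 called 0. No pair of arms shifted with genotype by 2-fold or more with an interval free of 0 in either state, among the 12 pairs of the families or all 89 pairs of the tables. Shifts under 2-fold had counting intervals free of 0 in 4 of the 12 pairs in stimulated and 7 in unstimulated cells. The share of all 89 pairs with such intervals was not computed, so these counts cannot be called particular to the families. In unstimulated cells the log2 shift for Cbl-b-/- over WT was 0.74 (0.45 to 1.03) for miR-466p, 0.61 (0.30 to 0.93) for miR-466a and 0.60 (0.49 to 0.71) for miR-669a.

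**Figure D5:**
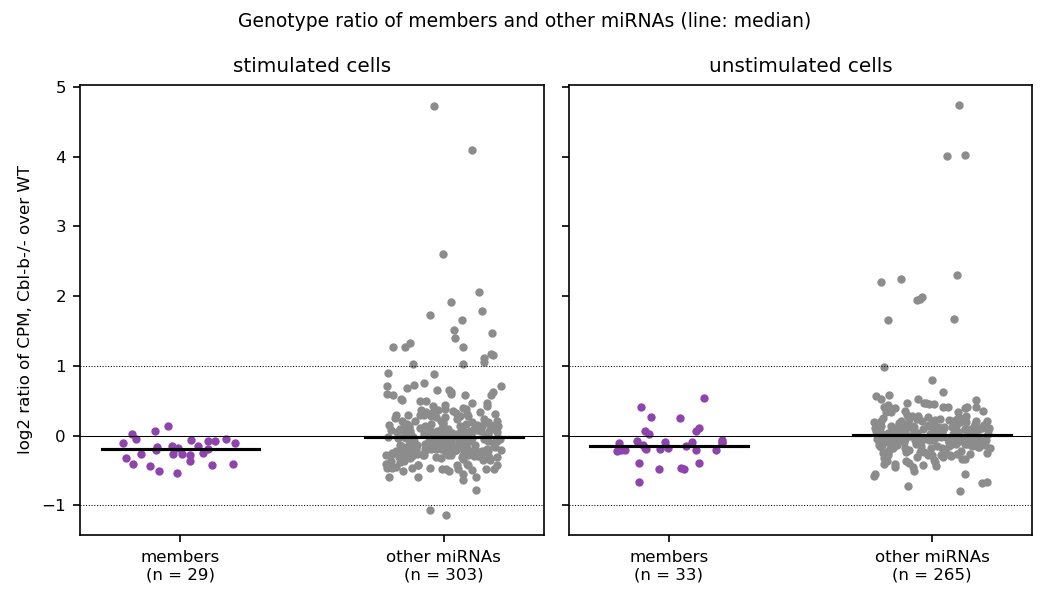
Log2 ratio of CPM, Cbl-b-/- over WT, of each member and of each other miRNA that averages 10 CPM or more in the compared pair, for stimulated cells on the left and unstimulated cells on the right, with the median as a line and dotted lines at 2-fold. The 29 and 33 members all lie within the dotted lines, with medians of -0.19 and -0.15.

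The difference between states asks whether the genotype ratio depends on stimulation. The rule was a difference of at least 1 in log2 with an interval free of 0 and an average of 10 CPM or more. It was met by 0 of 30 members, where 3.38% of all 325 measurements met it. The largest differences were those of miR-466p-5p, at 15.7, 20.9, 18.6 and 12.8 CPM, with -0.94, and of miR-466a-5p, at 9.25, 12.3, 14.6 and 10.9 CPM, with -0.83. In both the Cbl-b-/- library was the lower in stimulated cells and the higher in unstimulated cells.

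The authors' deposited table made 3 calls among the 71 names, out of 78 calls in stimulated and 52 in unstimulated cells over 1091 names. Its log2 ratios are WT over Cbl-b-/-, so a positive value means lower in Cbl-b-/-. In stimulated cells the authors' deposited table gave miR-669k-5p 1.117 with p = 0.002, from 35 reads in Cbl-b-/- and 88 in WT, and miR-466l-3p 1.847 with p = 0.016, from 4 and 17 reads. In unstimulated cells the authors' deposited table gave miR-466i-5p 1.832 with p = 0.006, from 6 and 23 reads. All 3 lay below the level minimum used here, and those p-values compare single libraries.

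The summed families followed a pattern over the 4 libraries close to that of some other miRNAs. Of 294 other measurements averaging 10 CPM or more, miR-142a-3p, known from blood cells in general, had the smallest Euclidean distance of log2 level over its own mean, 0.035, at 20612, 23396, 25690 and 29003 CPM. miR-101a-5p, miR-664-3p, miR-30b-5p and miR-30e-5p came next, at distances of 0.085 to 0.165. These distances rest on 4 libraries and describe likeness of pattern alone.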

How the data were processed

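Per the labels' protocols, small RNA libraries were prepared from total RNA of CD4+ T cells, 1 for each genotype and state. The authors deposited a table for each state that, per the file headers, holds a raw read count per known mature miRNA and library. The authors' deposited tables also give a log2 fold change, WT over Cbl-b-/-, and a p-value from an unnamed test. The submitters' processing notes name Cutadapt 1.7.1 and GRCm38.p5. The aligner and the handling of multiply matching reads were not given in these sources. Identical counts of different names were found, so single names of these families are uncertain.

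Counts were divided by the column sum of their library (CPM), and names with identical counts were kept once. The unstimulated and stimulated tables were joined by their raw counts. The members and lists were chosen with earlier results of these data known. Named members were the 12 most abundant, those past a rule, those beside the level minimum and the 5 nearest in pattern; the scarce members named from the additive fit, the deposited calls, the sequences and the arm pairs were chosen after their values were seen. The intervals and the edgeR step were tested on simulated data. For the difference between states and the arm ratio 0.5 was added to each count and the interval is a normal approximation. A fit with the difference between states has no residual degree of freedom, so no p-value is given for single pairs. edgeR 4.0.16 (quasi-likelihood, column sums, mean of at least 1 CPM) and DESeq2 1.42.0 ran in R 4.3.3, other steps in Python 3.11.15 with SciPy 1.17.1. The additive fit has terms for both genotype and state. Its 1 residual degree of freedom is thus the difference between states of the genotype ratio, with the spread estimated in part over all measurements. Its p-values assume that this difference is 0 apart from noise, and they do not measure a spread between replicates. Alternatives were other scalings, level minimums of 2 and 50 CPM, a fold limit of 1.5, identical names kept apart and, chosen after seeing the data, near-identical measurements kept once and settings for the arm ratio. Each group has 1 library, so no replicate could be left out.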

Additional observations from a re-analysis of the deposited data

How the results depend on the processing

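For Cbl-b-/- and WT cells in this order, the number of members higher was 0 and 0 under TMM factors and 0 and 0 under DESeq2 size factors, and the number lower was 14 and 15 under each. Of all measurements under DESeq2 size factors, 26.3% and 24.1% were higher and 28.7% and 28.2% lower. Without the 10 most abundant miRNAs in the totals 1 and 4 members were higher (miR-466h-5p in Cbl-b-/- cells) and 8 and 9 lower. Of all measurements in that setting, 34% and 36.8% were higher and 21.9% and 16.7% lower. There 1 member passed the rule for the difference between states (miR-466p-5p, -1.03). The log2 ratio of the summed members for stimulation was -0.94 and -0.96 under TMM factors, -0.87 and -0.99 under DESeq2 size factors and -0.54 and -0.47 without those 10; it was -0.31 in Cbl-b-/- cells with identical names kept apart. For Cbl-b-/- over WT it was -0.24 in stimulated and -0.26 in unstimulated cells under TMM factors, -0.31 in unstimulated cells under DESeq2 size factors and -0.26 in stimulated cells without those 10. In the additive fit 4 members were higher under TMM factors, 4 under DESeq2 size factors and 3 in DESeq2's test. Of all measurements tested, 33%, 34.5% and 25% were higher in the same settings.

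At a minimum of 50 CPM 1 and 1 members were higher (miR-669a-5p) and 2 and 3 lower, and at 2 CPM 4 and 8 were higher and 12 and 13 lower. At 2 CPM 1 member passed in the genotype comparison of stimulated cells (miR-669k-5p, -1.15) and 1 in the difference between states (miR-466i-5p, 1.67). At a fold limit of 1.5, 5 and 8 members were higher, and more were lower than higher in each genotype. At that limit 1 differed by genotype in unstimulated cells (miR-297c-5p, -0.66) and 2 in the difference between states (miR-466a-5p and miR-466p-5p). Pairs of arms that shifted to 5p numbered 1 and 1 of 3 at 50 CPM. At 2 CPM they numbered 11 of 19 in Cbl-b-/- cells, and with shared 3p measurements kept once 5 of 8 in WT cells. The shares of all measurements or pairs past the rule at these level minimums and this fold limit were not computed. Whether the members stand apart from other miRNAs under them is therefore not known. The causes were not tested, apart from the scaling shifts and the smaller numbers of members or pairs that these settings leave by construction. No paired analysis was possible because each group holds 1 library. Among the 30 members at a mean of 10 CPM, the sign of the stimulation ratio turned under another scaling for 7 in each genotype, all 5p strands and none past the rule. Depth limits the 32 members under 10 CPM most, where a ratio rests on few reads.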
